A study of Danio rerio with 18 samples.

Results

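Solute carriers are membrane proteins that move sugars, amino acids, ions, metals, vitamins and metabolites across the plasma membrane or the membranes of organelles, and each gene symbol carries the number of its family (slc1, slc2 and so on). Some exchange one solute for another, and some use the sodium or proton gradient set up by ion pumps. In the retina they clear glutamate from synapses, load transmitter into vesicles and bring fuel to neurons. In the retinal pigment epithelium (RPE), the cell layer behind the photoreceptors, they pass nutrients and ions between blood and retina.

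The genes described here are the 133 solute carriers on a zebrafish Affymetrix array whose symbol begins with slc and a digit, out of 8793 genes with a named probe set. They were chosen by symbol, with earlier results of these data known. Of 137 matching genes 4 were left out (slc32a1, slc24a4a, slc2a15b and slc7a3a), and all counts and shares of carriers are without them. Each gene is given by the probe set with its highest mean over the 18 arrays, and 17 of the 133 have more than 1 probe set. They fall into 37 families, of which family 25, the mitochondrial carriers, is the largest with 25 genes. Classes follow the family number, so that a class can hold genes with another substrate. Another 16 genes belong to families of amino acid and peptide carriers, 14 to those of metal ions, 13 to those of sugars, 13 to those of chloride and bicarbonate, and 10 to those of monocarboxylates and other organic acids. The 8 genes of families 1 and 6, of glutamate and neurotransmitter uptake, include carriers of other amino acids. The sugar class includes family 5 by its number only. Its members here are slc5a12, slc5a8l and the vitamin carrier slc5a6b, none of which is a sugar carrier. Of the 133, slc4a1ap and slc7a6os are named after a carrier without being one, and they are kept in the counts of carriers. In the gene table all 133 were found, on 25 chromosomes, and no pair of them were neighbouring protein-coding genes.

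RNA came from zebrafish of the AB strain at 52 hours post fertilization, in 6 groups of 3 arrays. Wild type fish and the mutant young, in which the chromatin remodeller gene smarca4 is mutated, were each collected as whole embryos, as dissected retinas (here also bare retinas) and as retinas with the RPE attached. Mutants were staged by their wild type siblings. Each array held a pool of 10, except for mutant retina replicate 2 with 9 and each mutant RPE-attached pool with 6. The pools are labelled biological replicates, and p-values rest on the spread between pools, taken over all 6 groups together. That spread includes shifts shared by same-numbered embryo and retina samples, which the main fit did not model. With 3 arrays per group the precision of every value is limited.

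Signals are on the log2 scale, and a difference of 1 is a doubling. A gene was called at a limma adjusted p under 0.05, over all probe sets, in a fit without the replicate number. A signal under 5.15, the 30th percentile of all group means, is termed dim, and a fold is not given where the lower group mean is dim. Signals of different genes were not compared, because probe sets differ in brightness. Many genes were named for a large called change without overlap between arrays, so lack of overlap in them is no added support.

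The labels were checked on other genes first. smarca4a, the gene table's name for smarca4, differed between mutant and wild type by -2.26 ± 0.16 (SE) in bare retina, -1.64 ± 0.16 with the RPE attached and -2.43 ± 0.16 in the embryo. The mean of 6 RPE markers was 6.61 to 6.84 in wild type retina and 8.58 to 9.15 with the RPE attached. Bare mutant retinas differed from wild type in 3 lens markers, whose mean was 6.40 to 8.95 against 5.53 to 5.71. The mean of the hybridization controls was 11.19 to 11.42 on the mutant RPE-attached arrays and 9.57 to 9.74 on the wild type RPE-attached arrays. The median SD over probe sets was 0.175 in the mutant RPE-attached group and 0.111 to 0.123 in the others. The spread estimate shared by all groups is thus low for a typical probe set in the mutant RPE-attached pools, and calls there are less strict. The mean of the poly-A RNA controls was 5.74 to 5.84 on the wild type RPE-attached arrays and 4.79 to 5.18 on the wild type bare retina arrays. On the mutant RPE-attached arrays it was 4.56 to 4.86. Genotype with the RPE attached, and RPE attachment in the mutant, cannot be told apart from pool size and these differences between arrays. RPE attachment in wild type cannot be told apart from the control difference between those arrays either. In every tissue, fewer cells of a type and less RNA per cell cannot be told apart.

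Wild type retina gave 86 of the 133 carriers above the dim level, and wild type whole embryo gave 96. In mutant retina the number was also 86, in mutant embryo 98, and with the RPE attached 89 in wild type and 94 in mutant. Of all genes 76.8% were above that level in wild type retina, against 64.7% of the carriers. Some 81 carriers were above it in all 6 groups, 25 in some, and 27 in none, which is 20.3% of the carriers against 13.3% of all genes. The 27 include slc6a3, the dopamine transporter, slc25a37, the erythroid iron carrier mitoferrin, and slc2a2, a glucose carrier of liver and gut in mammals, so the array gave little information on them. Of the 27, 8 were still called in a genotype comparison and remain in the counts below.

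The share of carriers called in retina was close to that of all genes. In mutant retina 10 carriers were higher, 7.52% of them against 10.1% of all genes, and 12 were lower, 9.02% against 9.5%. In RPE-attached retina 39 were higher (29.3% against 28.2%) and 25 lower (18.8% against 21.3%). Of these 64 calls, 27 were lost when at least 1 of the single arrays was left out. In whole embryo 10 were higher, 7.52% against 3.73% of all genes, and 5 lower, 3.76% against 3.66%. The 10 became 6 when the 6 embryo arrays alone were fitted, and the 5 became 3 without mutant embryo replicate 3. At least 1 of the 3 genotype comparisons called 78 carriers, and 55 were called in none. All genes were not counted in this way, and with the RPE attached 28.2% of them were called higher and 21.3% lower. The 78 are thus not a result about carriers. The medians over the 133 were 0.03, 0.12 and 0.02, against 0.04, 0.06 and 0.00 or just under it for all genes.

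**Figure D1:**
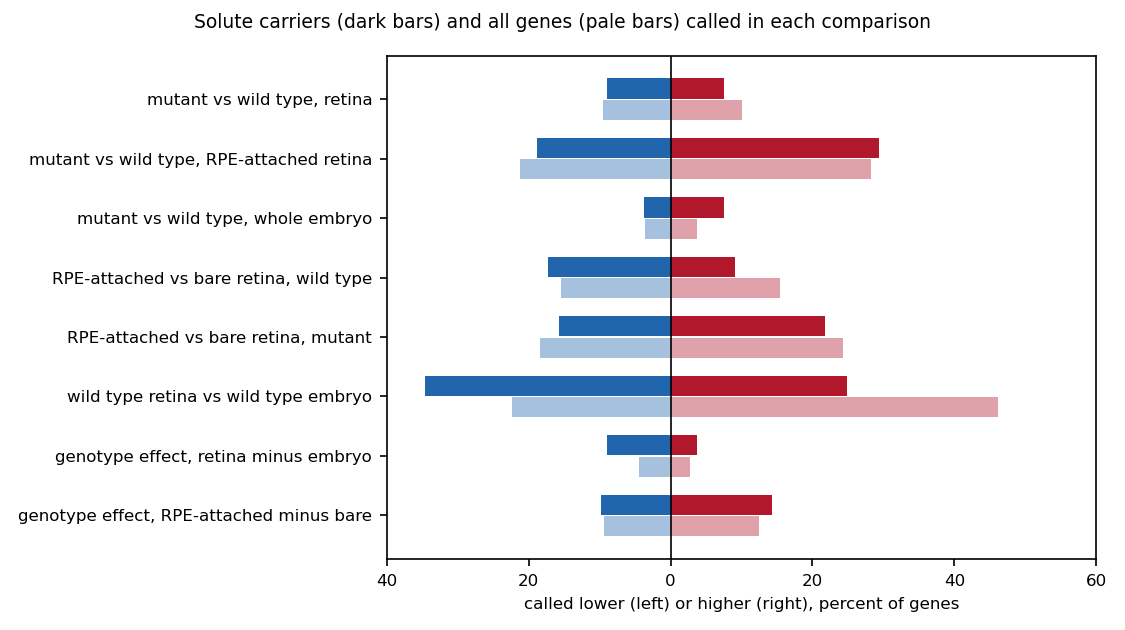
Bars give the percent of the 133 solute carriers (dark) and of all 8793 genes (pale) that limma called lower (left, blue) or higher (right, red) in each of 8 comparisons. In wild type retina against embryo the carriers have a shorter bar to the right and a longer bar to the left than all genes, and in the genotype comparison of retina the bars are of similar length.

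In mutant retina a vesicle loader, an anion exchanger and a glutamate carrier showed the largest falls, and a nucleoside carrier the largest rise. slc18a3a is a vesicular acetylcholine transporter, which loads acetylcholine into synaptic vesicles. Its signals were 8.0, 8.14 and 7.87 in the wild type retina pools and 5.70, 6.0 and 5.74 in the mutant pools. The groups lie far apart, and the mutant pools sit close to the dim level. The difference was -2.19 ± 0.13 (4.56-fold lower, adjusted p = 1.98e-10). In whole embryo the pools gave 9.30, 9.35 and 9.13 in wild type and 8.88, 9.07 and 9.09 in the mutant, a difference of -0.25 that was not called.

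The glutamate uptake carrier slc1a2b, of the group that in mammals clears most synaptic glutamate, read 11.38, 11.32 and 11.20 in wild type retina and 9.83, 9.85 and 9.66 in mutant retina. All 3 mutant pools were lower than every wild type pool, by -1.52 ± 0.13 (2.87-fold, adjusted p = 4.81e-08). The other glutamate-family members went the other way or were not called. slc1a4, an exchanger of alanine, serine and cysteine, rose from 8.51, 8.74 and 8.87 to 9.23, 9.56 and 9.66, a difference of 0.78 ± 0.12 (adjusted p = 4.51e-05). slc1a3a, the glial glutamate-aspartate carrier, differed by 0.31 (adjusted p = 0.164, and 0.0184 with the replicate number as a block). None of the 5 carriers of family 6, which take up transmitters and amino acids with sodium and chloride, was called in retina.

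These changes stood beside changes in cell type markers. All 8 neuronal markers on the array were called lower in mutant retina, with array means of 7.78 to 7.91 against 9.47 to 9.64, as were 4 of 6 Müller glia markers, with 7.42 to 7.69 against 8.31 to 8.52. The mean of 9 retinal markers was 9.70 to 9.91 against 9.76 to 9.95, and that of 3 lens markers 6.40 to 8.95 against 5.53 to 5.71. The part of these shifts in the carrier differences was not tested.

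Of the 3 vesicular and lysosomal carriers, only slc18a3a was called in retina. slc17a5 differed by 0.31 (adjusted p = 0.0923, and 0.0207 with the replicate number as a block) and slc17a9b by 0.004. Vesicular carriers are driven by the vacuolar proton pump, and its genes were counted as well. The pump lists were chosen with earlier results of these data known, and a link to the carriers was not tested. Of 15 genes for its subunits and accessory proteins, 12 were called lower in mutant retina and none higher, with a median of -0.63, beside 9.5% lower and 10.1% higher of all genes. In whole embryo 0 were called. atp6v1c1b, for one subunit of its catalytic part, fell by 1.12 and atp6v1h by 0.81. Of 13 sodium-potassium pump genes, which maintain the sodium gradient, 3 were called lower in retina, beside the same 9.5% of all genes. The neuronal catalytic subunit atp1a3a was one of these, at -1.09.

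Among ion exchangers, slc9a7, a sodium-proton exchanger of the Golgi, read 7.95, 8.38 and 8.12 in wild type retina against 6.93, 7.22 and 6.83 in the mutant. The groups did not overlap, and the difference was -1.16 ± 0.15 (2.23-fold lower, adjusted p = 6.33e-06). The chloride-bicarbonate exchanger slc4a2a showed the second largest fall of all carriers on its brightest probe set. That probe set read 8.10, 8.15 and 7.89 in wild type and 5.63, 6.02 and 6.33 in mutant retina, a difference of -2.05 ± 0.17 (adjusted p = 2.93e-08). Its other 2 probe sets differed by -0.34 and -0.04 and were not called, and the first of these was dim in every group. The fall of slc4a2a therefore rests on 1 probe set. No other of the 13 chloride and bicarbonate carriers was called in retina.

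Fuel carriers were lower in some genes and not in others. slc25a3a encodes a mitochondrial phosphate carrier, which brings phosphate in for ATP synthesis. It read 8.68, 8.16 and 8.53 in wild type and 7.06, 7.28 and 7.23 in mutant retina, a difference of -1.27 ± 0.15 (2.41-fold lower, adjusted p = 1.99e-06). Its paired copy slc25a3b read 12.40, 12.43 and 12.50 against 12.38, 12.47 and 12.40, a difference of -0.03 that was not called. Of 25 mitochondrial carriers, slc25a3a and slc25a33, a pyrimidine nucleotide carrier (-0.59 ± 0.15), were called in retina. With the replicate number as a block 6 were called, slc25a11, slc25a14, slc25a25a and slc25a55a being added. slc25a33 was not called without mutant retina replicate 2 (adjusted p = 0.0576).

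The lactate carrier slc16a3b fell from 6.21, 5.92 and 5.99 to 5.34, 5.19 and 5.56 (-0.67 ± 0.12, adjusted p = 0.000371), and the glucose carrier slc2a3a from 8.22, 8.16 and 7.91 to 7.62, 7.52 and 7.62 (-0.51 ± 0.12, adjusted p = 0.00475). Neither pair of groups overlapped. slc37a4b, which carries glucose 6-phosphate into the endoplasmic reticulum, rose from 6.64, 6.67 and 6.50 to 7.20, 7.45 and 7.56 (0.81 ± 0.13, adjusted p = 0.000125). The sugar carrier slc2a11b, known from pigment cells in medaka, was at 4.44, 4.69 and 4.48 in wild type retina and at 5.09, 5.0 and 5.27 in the mutant, all near or under the dim level (0.58 ± 0.14).

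The rises in mutant retina were led by slc29a2, an equilibrative nucleoside carrier. It read 7.42, 7.82 and 7.26 in wild type and 8.84, 8.80 and 8.92 in mutant retina, with every mutant pool above every wild type pool. The difference was 1.36 ± 0.15 (2.56-fold, adjusted p = 1.36e-06). Carriers of neutral amino acids moved both ways. slc43a1a, of the large neutral amino acid family, went from 5.12, 5.15 and 4.80, at or under the dim level, to 6.27, 6.22 and 6.08 (1.17 ± 0.16), and the sodium-coupled slc38a4 went from 7.95, 8.11 and 7.75 to 8.72, 8.82 and 8.53 (0.76 ± 0.14, adjusted p = 0.000639). slc43a2a, of the same family as slc43a1a, fell from 8.99, 8.58 and 8.94 to 8.29, 7.83 and 8.39 (-0.67 ± 0.16, adjusted p = 0.006).

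Of the 14 metal carriers, 1 rose and 1 fell in mutant retina. The zinc carrier slc39a13 rose from 5.46, 5.68 and 5.86 to 6.30, 6.89 and 6.64 (0.94 ± 0.13, adjusted p = 2.4e-05). slc30a7, which moves zinc into the Golgi, fell by 0.33 ± 0.10 (adjusted p = 0.026), and this call was lost without wild type retina replicate 1 or 2 or mutant retina replicate 3 (adjusted p up to 0.152). The sodium-phosphate carrier slc20a1b rose from 9.81, 9.65 and 9.75 to 10.49, 10.39 and 10.37 (0.68 ± 0.11, adjusted p = 6.88e-05). The remaining calls were slc35h1 (0.48) and slc27a6 (0.39), which were higher, and slc35f6 (-0.49) and the lysosomal histidine and peptide carrier slc15a4 (-0.37), which were lower. The call of slc27a6 was lost without wild type retina replicate 2, that of slc15a4 without any 1 of 5 arrays (all but mutant retina replicate 2) and that of slc35f6 without wild type retina replicate 1 or 2 or mutant retina replicate 1. The other probe set of slc35f6 differed by 0.03.

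A replicate block, fitted to the 12 embryo and bare retina arrays because same-numbered samples deviated together there, called 39 carriers in retina, 21 higher and 18 lower, and these include all 22 above. The 17 added genes had differences of at most 0.45 in size. The share of all genes called in this fit was not counted, so the 39 describe the carriers only.

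**Figure D2:**
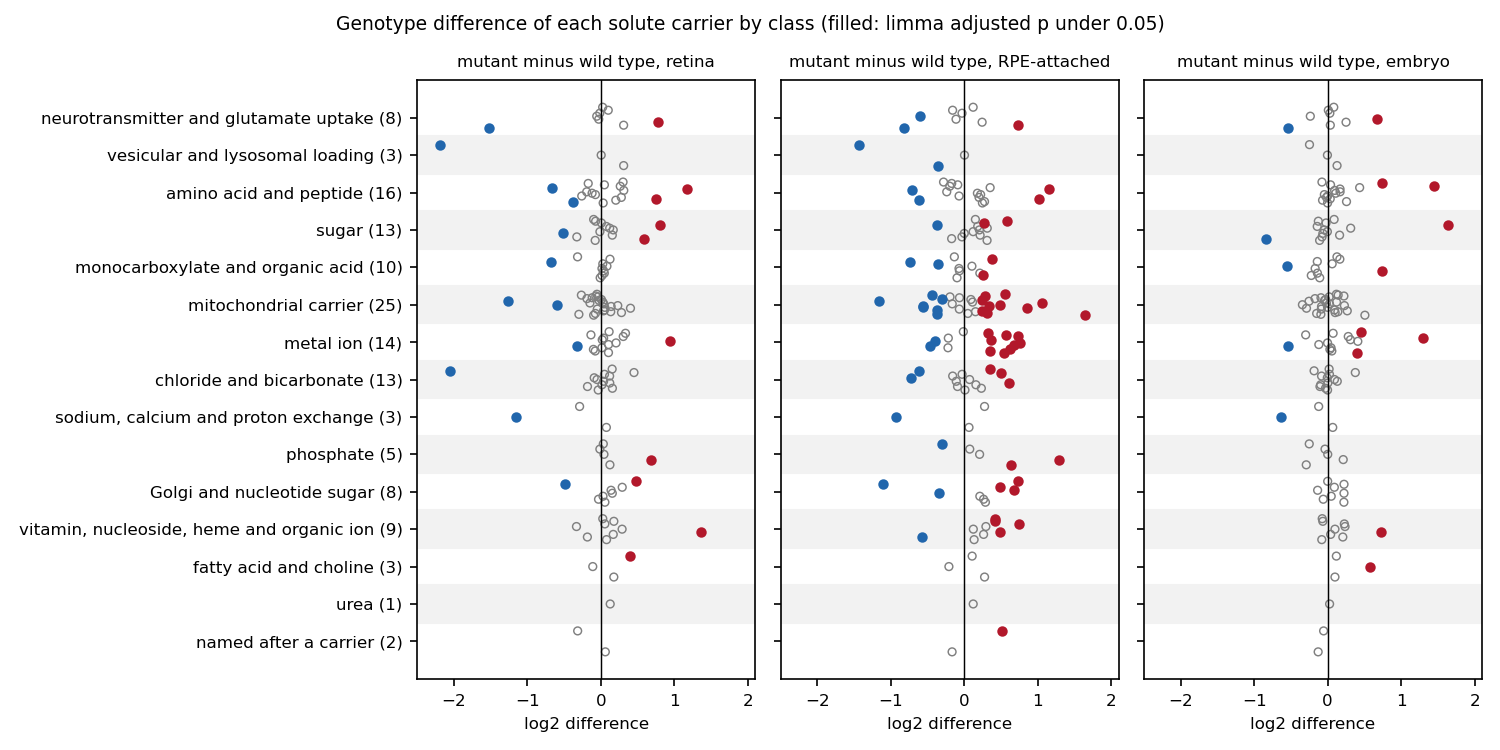
Each point is 1 solute carrier, placed by its log2 difference between mutant and wild type (x axis) and by transport class (y axis, number of genes in brackets) in retina, RPE-attached retina and whole embryo. Filled points passed a limma adjusted p under 0.05, and the largest falls in retina are slc18a3a and slc4a2a at -2.19 and -2.05.

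**Figure D3:**
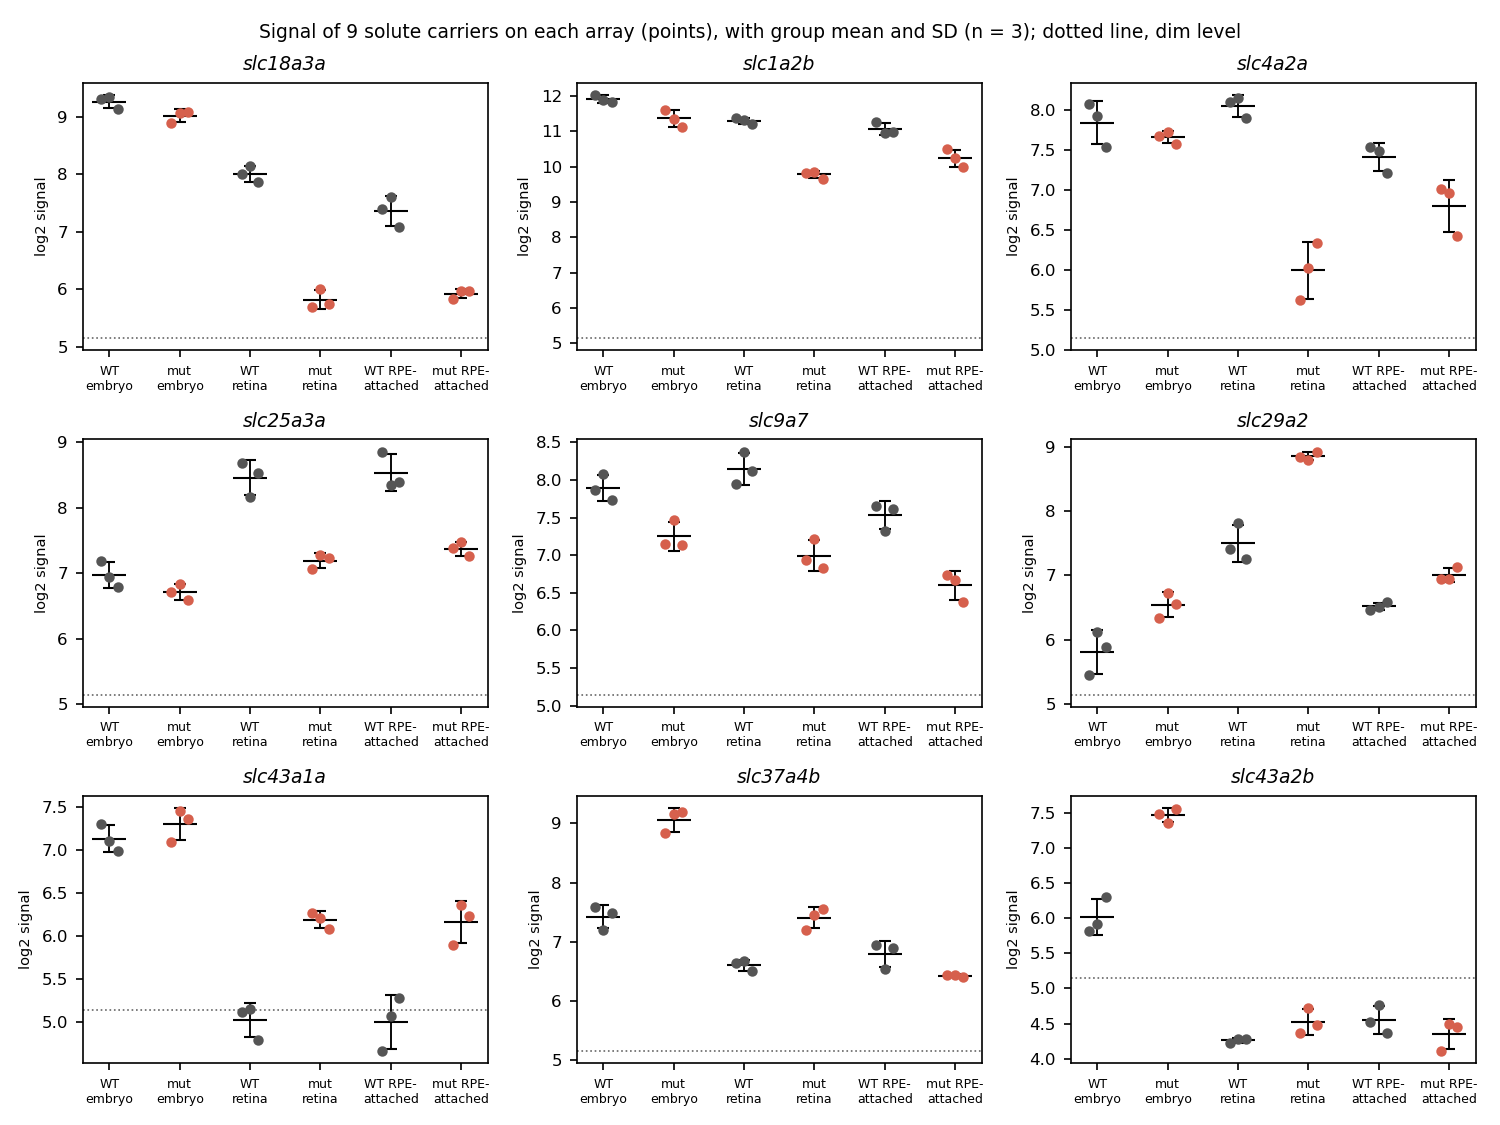
Points are the log2 signals of 9 solute carriers on every array (wild type grey, mutant red), with the group mean and SD of 3 arrays, and the dotted line is the dim level of 5.15. slc18a3a is separated by genotype in both retina preparations and not called in embryo, whereas slc37a4b is higher in mutant retina and embryo and lower in the mutant RPE-attached pools.

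In RPE-attached retina the mutant pools shared several of these differences with the bare retina. The 2 comparisons use separate arrays. Of the carriers higher in mutant retina, 5 were also called higher with the RPE attached (50% of 10, 12.8% of 39). Of those lower, 8 were also called lower (66.7% of 12, 32% of 25). With the RPE attached 28.2% of all genes were called higher and 21.3% lower. The share of all genes called alike in both preparations was not counted, so these overlaps describe the carriers only. slc18a3a went from 7.39, 7.60 and 7.07 in wild type to 5.82, 5.96 and 5.97 in mutant RPE-attached pools, without overlap (-1.44 ± 0.13, adjusted p = 3.42e-08). slc25a3a differed by -1.16 ± 0.15, slc9a7 by -0.93 ± 0.15, slc1a2b by -0.82 ± 0.13 and slc16a3b by -0.74 ± 0.12. On the higher side slc20a1b was at 1.29 ± 0.11, slc43a1a at 1.16 ± 0.16 and slc38a4 at 1.02 ± 0.14. Of the 8 neuronal markers 7 were called lower here as well, with array means of 7.58 to 7.69 against 9.40 to 9.51. Müller glia markers had 7.44 to 7.63 against 8.36 to 8.43. Mutant pools were higher in RPE markers (9.19 to 9.38 against 8.58 to 9.15) and vessel markers (6.30 to 6.46 against 5.79 to 5.83). The same held for erythrocyte markers (6.98 to 7.05 against 6.63 to 6.76) and mesenchyme and cartilage markers (6.39 to 6.46 against 5.96 to 6.32). Retinal, xanthophore and iridophore, muscle and lens means overlapped. The part of these markers was not tested.

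Called in both preparations but with opposite sign were 3 carriers. slc39a13 read 6.10, 6.25 and 6.09 in wild type and 5.79, 5.63 and 5.81 in mutant RPE-attached pools (-0.40 ± 0.13), and slc37a4b read 6.95, 6.54 and 6.89 against 6.44, 6.43 and 6.40 (-0.37 ± 0.13). The nucleotide carrier slc25a33 was higher, 7.89, 7.44 and 7.56 in mutant against 7.19, 7.24 and 7.01 (0.48 ± 0.15). The difference of the genotype effect between the preparations, tested in limma, was -1.35 ± 0.19 for slc39a13 (adjusted p = 0.000109), -1.17 ± 0.19 for slc37a4b (adjusted p = 0.00031) and 1.08 ± 0.21 for slc25a33 (adjusted p = 0.00166). Within RPE-attached retina the call of slc39a13 was lost without replicate 2 of either genotype (adjusted p up to 0.0732), that of slc25a33 without wild type replicate 3 or mutant replicate 1 (0.0709), and that of slc37a4b without wild type replicate 1 or 3 or mutant replicate 2 or 3 (0.123).

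Of the 25 mitochondrial carriers, 10 were higher and 7 lower in mutant RPE-attached pools, where 28.2% and 21.3% of all genes were called. These 17 calls became 8 to 13 without any 1 of the 6 arrays, the 8 without wild type RPE-attached replicate 3, and 9 with array weights or with the compared groups alone. slc25a10b, the dicarboxylate carrier, read 6.39, 5.88 and 5.61 in wild type and 7.30, 7.92 and 7.60 in mutant RPE-attached pools (1.65 ± 0.27, 3.13-fold, adjusted p = 4.88e-05). slc25a38b, of the carriers that bring glycine into mitochondria for heme synthesis, read 7.77, 7.43 and 7.80 against 8.68, 8.70 and 8.80 (1.06 ± 0.14, 2.08-fold, adjusted p = 5.27e-06). Both sets of mutant pools lie above all wild type pools, and in bare retina neither gene was called (-0.10 and -0.15). Their genotype effects differed between preparations by 1.74 ± 0.38 (adjusted p = 0.00323) and 1.21 ± 0.20 (adjusted p = 0.000426). The ATP-magnesium and phosphate exchanger slc25a25a rose by 0.85 and slc25a26, which imports the methyl donor S-adenosylmethionine, fell by 0.56. Most of the other 13 calls were under 0.6 in size, and the part of the difference between the arrays in them was not tested.

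Of 14 metal carriers, 9 were called higher and 2 lower in mutant RPE-attached pools, beside 28.2% and 21.3% of all genes. Without any 1 array the higher calls numbered 6 to 9, and they were 6 without wild type RPE-attached replicate 1. Zinc carriers on the higher side were slc39a6 (0.73 ± 0.16), the Golgi loader slc30a5 (0.62 ± 0.13) and slc39a7 (0.57 ± 0.12), which releases zinc from the endoplasmic reticulum. The proton-coupled iron carrier slc11a2 went from 7.62, 7.61 and 7.49 to 8.11, 8.07 and 8.15, with no overlap (0.54 ± 0.10, adjusted p = 0.0002). The copper importer slc31a1 was at 0.76 on its brightest probe set and at -0.20, not called, on its other one. Likewise slc30a9 was called at 0.68 and at 0.61 on a pair of probe sets and at -0.28 on the remaining one.

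Of the 16 genes of amino acid and peptide families, 2 were called in each direction in those pools, beside the same 28.2% and 21.3%. slc3a2b, the heavy chain that brings several amino acid exchangers to the cell surface, read 10.92, 10.53 and 10.71 in wild type and 10.25, 10.06 and 9.74 in mutant (-0.71 ± 0.14, adjusted p = 0.000328). slc38a2, a sodium-coupled neutral amino acid carrier, read 9.19, 9.10 and 9.04 against 8.43, 8.51 and 8.56 (-0.61 ± 0.12, adjusted p = 0.00029). Neither was called in bare retina, with 0.31 and 0.20, although slc3a2b was called there with the replicate block (adjusted p = 0.0126). Their effects differed between preparations by -1.02 ± 0.19 and -0.82 ± 0.17. Of the glutamate carriers, slc1a3a was higher here, from 6.95, 6.95 and 7.19 to 7.57, 7.82 and 7.90 (0.73 ± 0.14, adjusted p = 0.000329). The synaptic vesicle carrier slc6a17 was lower by 0.60 ± 0.14. In bare retina it was not called (-0.06). RPE attachment changed it by 0.54 in wild type, where it was called, and by -0.0008 in the mutant. Between the preparations 19 carriers had a higher genotype effect with the RPE attached, 14.3% against 12.5% of all genes, and 13 a lower one, 9.77% against 9.34%. The 13 became 8 without wild type RPE-attached replicate 2.

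In whole embryo slc37a4b, slc43a2b and slc39a5 showed the largest rises. slc37a4b read 7.59, 7.21 and 7.48 in wild type and 8.83, 9.16 and 9.19 in mutant embryos (1.64 ± 0.13, 3.11-fold, adjusted p = 1.25e-07). slc43a2b, a large neutral amino acid carrier, read 5.81, 5.92 and 6.30 against 7.47, 7.35 and 7.56 (1.45 ± 0.14, 2.73-fold, adjusted p = 1.12e-06). The zinc importer slc39a5, of gut and pancreas in mammals, read 5.42, 4.90 and 5.29 against 6.57, 6.28 and 6.66 (1.30 ± 0.15, 2.46-fold, adjusted p = 8.88e-06). In each of the 3 genes every mutant pool exceeded every wild type pool. In bare retina slc43a2b and slc39a5 were dim in both genotypes.

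Smaller rises in the embryo included slc7a7, a basic amino acid exchanger subunit (0.74 ± 0.14), the kidney and gut dicarboxylate carrier slc13a2 (0.73 ± 0.16), the GABA carrier slc6a11a (0.67 ± 0.13) and the fatty acid carrier slc27a2a (0.58 ± 0.16). The iron exporter slc40a1 (0.45 ± 0.13, adjusted p = 0.0463) and the iron importer slc11a2 (0.40 ± 0.10, adjusted p = 0.0174) were also higher. The call of slc40a1 was lost without any 1 of the 6 embryo arrays, that of slc27a2a without any 1 of 4 (wild type replicate 1 or 3, mutant replicate 2 or 3, adjusted p up to 0.207), and that of slc11a2 without wild type replicate 3 or mutant replicate 2 or 3 (0.0957). The mutant and wild type arrays overlapped for slc27a2a. When the embryo arrays alone were fitted, slc13a2 (adjusted p = 0.0804), slc27a2a (0.195) and slc11a2 (0.0767) were not called. The mean of 8 erythrocyte markers was 8.82 to 9.13 in mutant embryos against 8.16 to 8.41, and 5 of the 8 were called higher. slc4a1a, the anion exchanger of red cells, read 9.75, 9.49 and 9.63 against 10.06, 9.79 and 10.15 and was not called. Liver and yolk markers had means of 10.38 to 10.75 against 10.18 to 10.63, with 1 of 8 called higher and 1 lower. Neuronal markers had means of 9.26 to 9.36 against 9.63 to 9.84, with 2 of 8 called lower. The part of these markers in the carrier differences was not tested.

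On the lower side in the embryo, slc2a11b read 7.38, 7.07 and 6.99 in wild type and 6.06, 6.49 and 6.38 in mutant (-0.84 ± 0.14, 1.79-fold, adjusted p = 0.000816), without overlap. Xanthophore and iridophore markers had means of 8.08 to 8.41 and 8.18 to 8.45 in the same pools. slc16a12b, of the monocarboxylate family, read 6.47, 6.44 and 6.32 against 6.05, 5.94 and 5.60 (-0.55 ± 0.11, adjusted p = 0.00296).

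Called in the same direction in all 3 genotype comparisons were 4 carriers. The comparisons use different arrays but are not independent. Same-numbered embryo and bare retina samples deviated together, and all 3 come from 1 fit. All genes called alike in all 3 were not counted, so this number describes the carriers only. In the order bare retina, retina with RPE, embryo, slc1a2b differed by -1.52, -0.82 and -0.55, slc9a7 by -1.16, -0.93 and -0.64, and slc30a7 by -0.33, -0.47 and -0.54. slc29a2 was higher by 1.36, 0.49 and 0.73. In embryo slc9a7 read 7.86, 8.08 and 7.73 in wild type and 7.15, 7.47 and 7.13 in mutant, and slc30a7 read 9.09, 8.99 and 8.95 against 8.54, 8.47 and 8.41. Leaving out a single array ended the embryo call of slc9a7 (without wild type embryo replicate 2 or mutant embryo replicate 3, adjusted p up to 0.0587) and that of slc1a2b (without wild type embryo replicate 1 or mutant embryo replicate 3, up to 0.107). It also ended the RPE-attached call of slc29a2 (without mutant replicate 3, 0.0529). The bare retina call of slc30a7 was lost without wild type retina replicate 1 or 2 or mutant retina replicate 3 (up to 0.152). With the embryo arrays alone, the embryo calls of slc29a2 (0.0561) and slc1a2b (0.0548) were lost as well.

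The genotype effect differed between retina and embryo for 17 carriers. It was higher in retina for 5, 3.76% of the carriers against 2.8% of all genes, and lower for 12, 9.02% against 4.42%. The 5 became 3 without replicate 1 or 3 of the mutant embryos or replicate 1 of the wild type retinas. With the replicate block 29 were called, 10 higher and 19 lower, and all genes were not counted there. slc18a3a had the largest such difference, -1.94 ± 0.18 (adjusted p = 6.5e-07), followed by slc4a2a with -1.87 ± 0.25 on its brightest probe set (adjusted p = 4.16e-05, and -0.29 and -0.15 on its other 2, not called). For slc1a2b it was -0.97 ± 0.19 (adjusted p = 0.00198) and for slc25a3a -1.01 ± 0.21 (adjusted p = 0.0032). slc2a11b had the largest positive difference, 1.42 ± 0.20 (adjusted p = 0.000101), where the retina was dim or near it.

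Paired copies with the same name but a final a or b numbered 9 pairs, and in 7 of them at least 1 of the 3 genotype comparisons called 1 copy and not the other. Over all pairs and genotype comparisons this held in 10 of 27 cases. Pairs among all genes were not counted in this way. With the RPE attached, 28.2% of all genes were called higher and 21.3% lower, so the count is not a result about paired copies. slc37a4b was higher in mutant retina and embryo, whereas slc37a4a differed by 0.07 and -0.14 and was not called. slc43a2a was lower in retina, where slc43a2b was dim, and slc43a2b was higher in embryo, where slc43a2a read 9.12, 8.85 and 9.20 against 9.65, 9.27 and 9.54 (0.44, adjusted p = 0.145, and 0.00131 with the replicate block). slc20a1b was higher in both retina preparations, and slc20a1a, dim in every retina group, was called at 0.63 with the RPE attached, a call lost without mutant replicate 2 (adjusted p = 0.0534). In RPE-attached retina slc25a3a and slc25a3b were called in opposite directions, -1.16 and 0.24, as were slc25a55a and slc25a55b, -0.44 and 0.55, of which the second was dim there. The calls of slc25a3b, slc25a55a and slc25a55b were each lost without any 1 of 3 to 5 arrays, with an adjusted p of up to 0.099, 0.314 and 0.102. Differences between copies were not tested, and probe sets of near-identical copies can share signal.

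**Figure D4:**
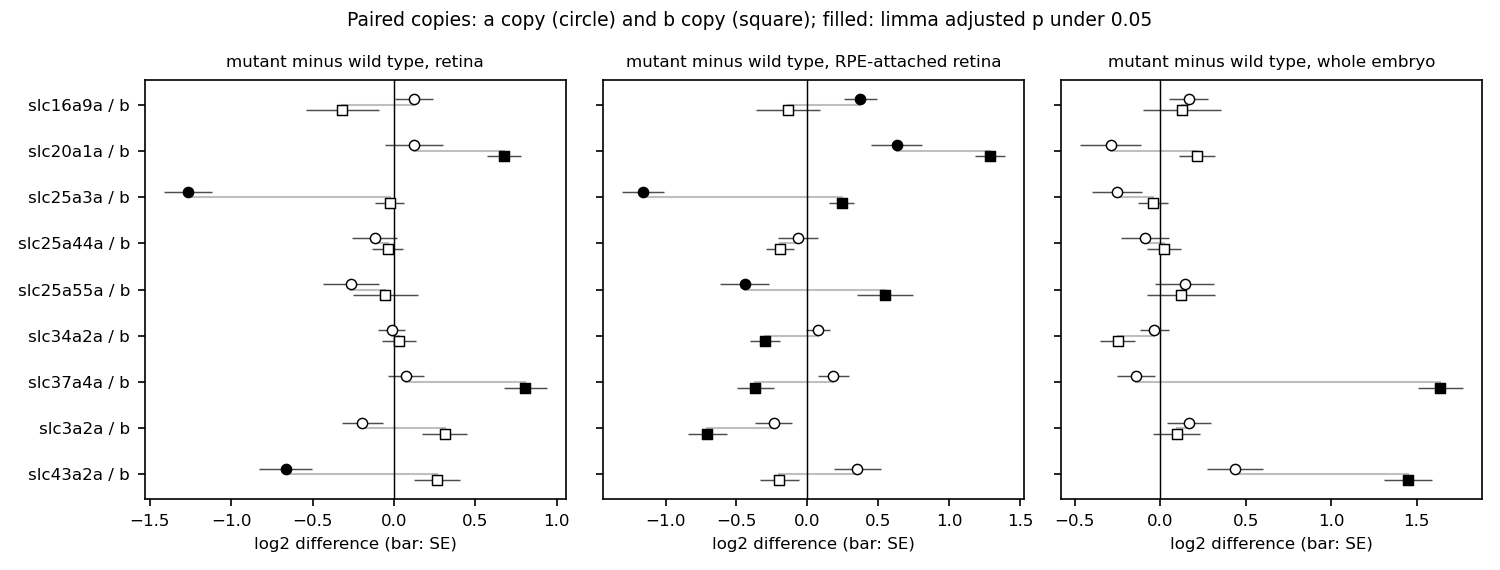
The log2 difference between mutant and wild type (x axis, with its SE) is shown for the a copy (circle) and the b copy (square) of 9 gene pairs in 3 tissues, filled where limma called it. slc25a3a stands apart from slc25a3b in both retina preparations, and slc37a4b and slc43a2b from their a copies in embryo.

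Wild type retina was then compared with wild type embryo. In retina 33 carriers were higher, 24.8% against 46.2% of all genes, and 46 were lower, 34.6% against 22.4%. The median over the carriers was 0.01, against 0.26 over all genes. Array medians were lower in retina (-0.11), and with them subtracted 50 carriers were higher and 45 lower. All genes were not counted with the medians subtracted, so those 2 numbers describe the carriers only. The higher carriers were led by slc29a2 (1.68 ± 0.15), slc25a3a (1.49 ± 0.15), the mitochondrial citrate carrier slc25a1a (1.35 ± 0.13), slc3a2b (1.20 ± 0.14), the anion carrier slc26a11 (1.12 ± 0.15) and slc30a9 (0.97 ± 0.10). slc25a1a read 10.13, 10.26 and 10.13 in retina and 8.52, 8.95 and 9.01 in embryo, with no overlap. slc29a2 and slc25a3a, the retina-rich pair, were also among those that differed most between mutant and wild type retina. That comparison shares the wild type retina arrays with this one.

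The lower carriers included several of other tissues. slc25a4, the ATP-ADP exchanger that in mammals serves heart and muscle, read 5.14, 5.15 and 5.27 in retina and 11.69, 11.47 and 11.83 in embryo (-6.48 ± 0.12). The retina signal was at the dim level, so the background limits the size of this difference. slc4a1a read 5.81, 5.63 and 5.48 against 9.75, 9.49 and 9.63 (-3.98 ± 0.17, 15.8-fold lower). The glutamine carrier slc38a5b read 6.88, 7.21 and 6.89 against 9.58, 9.65 and 9.15 (-2.46 ± 0.14, 5.52-fold lower), and slc3a2a read 6.80, 6.47 and 6.39 against 8.52, 8.44 and 8.65 (-1.99 ± 0.13, 3.96-fold lower). slc13a2, slc16a12b, slc25a55b, slc27a2a and slc2a11b were dim in retina and above that level in embryo. In the same arrays the mean of 9 muscle markers was 5.71 to 5.76 in retina and 12.89 to 13.10 in embryo, and of 8 erythrocyte markers 6.43 to 6.54 and 8.16 to 8.41. Of the heavy chains, slc3a2b was higher and slc3a2a lower in retina.

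The last comparisons set RPE-attached against bare retina. In wild type 12 carriers were higher with the RPE, 9.02% against 15.4% of all genes, and 23 were lower, 17.3% against 15.5%. The 23 became 15 without bare retina replicate 1 or RPE-attached replicate 3. Among the called carriers 4 had other probe sets, 6 in all, of which 0 were called in the same direction and 3 in the opposite one. slc2a11b led the higher ones, with 5.82, 6.09 and 5.62 against 4.44, 4.69 and 4.48 in bare retina, which was dim (1.30 ± 0.14, adjusted p = 4.1e-06). slc22a31, of the organic ion family, read 5.95, 6.15 and 6.33 against 5.08, 5.31 and 5.23 (0.93 ± 0.12, adjusted p = 1.65e-05). Others were slc26a11 (0.65 ± 0.15), slc38a5b (0.60 ± 0.14), slc6a17 (0.54), slc15a4 (0.53 ± 0.13) and slc3a2a (0.50 ± 0.13). The 12 also hold slc4a1ap (0.56), which is not a carrier. Beside them 5 of 6 RPE markers and 4 of 5 xanthophore and iridophore markers were called higher, the latter with means of 7.87 to 8.06 against 6.55 to 6.74. Of 4 vessel markers 3 were higher, of 7 macrophage and leukocyte markers 4, and of 6 mesenchyme and cartilage markers 4. The part of each tissue was not tested.

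Those lower with the RPE attached in wild type included slc25a38b (-1.29 ± 0.14), slc29a2 (-0.98 ± 0.15), slc16a9b (-0.90 ± 0.23), slc39a6 (-0.84 ± 0.16) and slc18a3a (-0.65 ± 0.13). slc7a6os, which is not a carrier, was also lower (-0.91). slc25a38b read 9.12, 8.86 and 8.88 in bare and 7.77, 7.43 and 7.80 in RPE-attached pools, without overlap. The means of the neuronal markers were 9.47 to 9.64 and 9.40 to 9.51 in these groups.

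In the mutant 29 carriers were higher with the RPE, 21.8% against 24.3% of all genes, and 21 lower, 15.8% against 18.3%. slc25a10b (1.20 ± 0.27), the lysosomal carrier slc15a4 (1.18 ± 0.13), slc30a5 (0.88 ± 0.13) and slc1a3a (0.86 ± 0.14) were the largest rises. slc15a4 read 5.14, 5.40 and 5.11 in bare and 6.20, 6.24 and 6.76 in RPE-attached mutant pools. The falls were led by slc29a2 (-1.85 ± 0.15), slc3a2b (-1.27 ± 0.14), slc1a4 (-1.14 ± 0.12) and slc37a4b (-0.98 ± 0.13). This comparison shares the bare mutant arrays with the retina comparison, in which slc29a2, slc1a4 and slc37a4b were higher in the mutant. Carriers higher with the RPE attached in both genotypes included slc2a11b, slc22a31, slc38a5b, slc15a4, slc3a2a and slc1a3a. The wild type call of slc1a3a was lost without any 1 of the 3 bare arrays or RPE-attached replicate 3 (adjusted p up to 0.12), and the mutant call of slc3a2a without bare replicate 1 (0.0599).

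**Figure D5:**
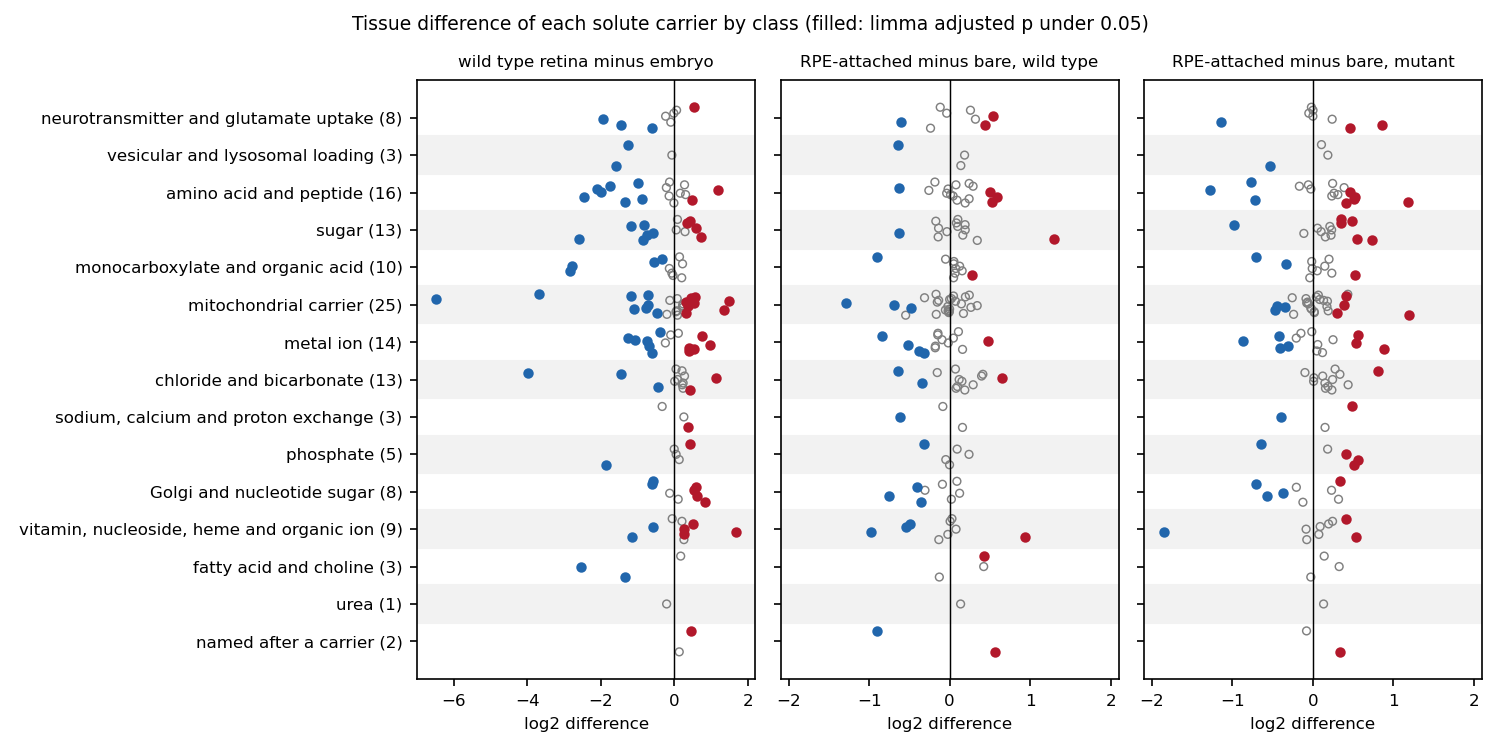
Each point is 1 solute carrier by class (y axis) and log2 difference (x axis, a wider range in the first panel) for wild type retina minus embryo and for RPE-attached minus bare retina in each genotype, filled where the limma adjusted p was under 0.05. The point at -6.48 among the mitochondrial carriers is slc25a4, and the highest sugar carrier in the middle panel is slc2a11b at 1.30.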

How the data were processed

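The authors deposited log2 values made with RMA (the robust multiarray average) and the package affy under R 2.2.0, per the submitters' processing notes. RMA removes background, applies quantile normalization and summarises probes, so low signals are compressed and a fold is an underestimate there. Scanner files were not analysed here. Of 15617 probe sets in the table, 115 were controls. After these were left out, 15502 were tested, of which 10795 had 1 gene symbol in the platform annotation, 135 several and 4572 none. The gene table was used for names and neighbours only.

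Differences were fitted in limma 3.58.1 (R 4.3.3). The model held 6 group means over 18 arrays, leaving 12 residual degrees of freedom, and used moderated variances. P-values were adjusted over all probe sets tested by the Benjamini-Hochberg method. There were 8 comparisons. The script was tested on simulated data. Figures were drawn with matplotlib 3.10.9 under Python 3.11.15.

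The solute carriers, their classes, the marker lists and the pump lists were chosen with earlier results of these data known. Genes named in a comparison are those with the largest called changes whose arrays did not overlap between groups, the smallest p of each class, carriers called alike in all 3 tissues and paired copies whose calls differ.

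Replicate numbers come from the sample titles. Deviations from the group means correlated at 0.29 to 0.60 between same-numbered embryo and retina samples, in every pair, so these numbers were taken to pair the samples. The main fit left this pairing out, so its p-values and calls ignore it. The replicate block was an alternative fit. With the RPE-attached groups they correlated at -0.20 to 0.16. The mean hybridization control was 10.35 to 10.60 on replicate 1 of the embryo and retina groups and 9.36 to 9.78 on replicates 2 and 3. Alternatives were another threshold, dim filter, probe set choice, normalization, moderation, array weights, samples in the fit, the replicate block and leaving out each array.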

Additional observations from a re-analysis of the deposited data

Results flagged for a closer look

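In 20 cases, in 18 carriers, the genotype effect in 1 tissue differed from that in another by limma's test of the difference itself (adjusted p under 0.05). They are the largest called differences in each direction. Between retina and whole embryo, the effect was higher in retina by 1.42 for slc2a11b, 1.00 for slc43a1a, 0.72 for slc38a4, 0.63 for slc16a12b and 0.48 for slc35h1. It was lower in retina for slc18a3a (-1.94), slc4a2a (-1.87), slc39a5 (-1.26), slc43a2b (-1.19) and slc43a2a (-1.10). Of these, slc2a11b, slc16a12b, slc39a5 and slc43a2b were dim in retina in both genotypes, so the background limits the size of the retina effect. The calls of slc38a4 and slc35h1 were lost without any 1 of 7 and of 11 of the 12 arrays, with an adjusted p of up to 0.113 and 0.123. The value of slc4a2a is that of its brightest probe set, and its other probe sets were not called for this difference.

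Between RPE-attached and bare retina, the effect was higher with the RPE attached by 1.74 for slc25a10b, 1.44 for slc4a2a, 1.21 for slc25a38b, 1.08 for slc25a33 and 1.02 for slc43a2a. It was lower for slc39a13 (-1.35), slc37a4b (-1.17), slc3a2b (-1.02), slc29a2 (-0.87) and slc38a2 (-0.82). These 10 rest in part on mutant RPE-attached arrays whose hybridization controls and pool size differed from the rest. They also rest on bare mutant retinas, whose lens marker means were 6.40 to 8.95 against 5.66 to 6.14 in mutant RPE-attached pools. Wild type RPE-attached arrays enter as well, with poly-A RNA controls of 5.74 to 5.84 against 4.79 to 5.18 in wild type bare retina. The value of slc4a2a again rests on its brightest probe set, and another of its probe sets gave the opposite sign. RPE attachment changed slc25a38b by -1.29 in wild type and -0.08 in the mutant, and slc38a2 by 0.09 and -0.72. The part of these differences was not tested.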

How the results depend on the processing

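At the 0.001 threshold of the series design, the carriers called numbered 13 in retina, 28 in RPE-attached retina, 4 in embryo, 11 and 14 for RPE attachment in wild type and mutant, 52 for retina against embryo, and 5 and 4 for the differences of genotype effects between retina and embryo and between RPE-attached and bare retina. With the replicate block over embryo and retina arrays, 39 were called in retina and 29 for the retina and embryo difference, including all 22 and 17 of the fit without it. It moved no other total by over 1.5 times. Shares of all genes are not given beside the totals of this section, so the totals describe the carriers only. Leaving out 1 array gave 18 to 22 calls in retina, 49 to 66 in RPE-attached retina, 10 to 14 in embryo, 25 to 32 and 40 to 50 for RPE attachment, 73 to 79 for retina against embryo, and 12 to 17 and 23 to 32 for the differences of effects. The other settings kept each total within 1.5 times, among them a fit without the RPE-attached arrays, chosen after seeing the data (23 calls in retina). By direction, subtracting array medians moved the carriers higher in wild type retina than embryo from 33 to 50, fitting the compared groups alone moved those higher in mutant embryo from 10 to 6, and the block over all arrays moved those with a higher genotype effect in retina than embryo from 5 to 9. Of the changes of named genes under these settings, the 0.001 threshold and other probe sets aside, 3722 kept their direction and side of the threshold, 124 lost the call and 38 gained it. Other probe sets of the same gene reversed the sign of slc4a2a (0.34 in RPE-attached retina, 0.52 for RPE attachment in wild type and -0.15 for the difference between preparations), slc35f6 (0.028 in retina and 0.17 for RPE attachment in the mutant), slc31a1 (-0.20 in RPE-attached retina and -0.23 for RPE attachment in the mutant) and slc30a9 (-0.28 in RPE-attached retina). The cause was not tested. These reversals are those of the named changes only. For RPE attachment in wild type, the called carriers had 6 other probe sets in 4 genes. Of these, 0 were called in the same direction and 3 in the opposite one. For wild type retina against embryo, 5 of 9 other probe sets were called in the same direction and 1 in the opposite one. Precision is limited by 3 arrays a group and, for the 27 carriers dim throughout, by signal.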

Other observations

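Other membrane transporters on the array, listed for comparison, were called as follows. Of 14 ABC transporters, which pump substrates with ATP, 5 were higher and 0 lower in mutant RPE-attached retina, beside 28.2% and 21.3% of all genes, and limma called 0 in bare retina and in embryo. Of 8 major facilitator genes named mfsd, 5 were higher and 1 lower there, beside the same shares of all genes, and 0 were called in bare retina and in embryo. Of 5 aquaporins, 1 was higher and 1 lower in RPE-attached retina and 1 was lower in embryo, where 3.66% of all genes were lower. In wild type retina against embryo, 8 of the 13 sodium-potassium pump genes were lower and 3 higher, beside 22.4% and 46.2% of all genes.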
